A study of Mus musculus with 6 samples.

Results

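The miR-10 and miR-196 families, mmu-miR-10a-5p, mmu-miR-10b-5p, mmu-miR-196a-5p and mmu-miR-196b-5p, are mature miRNAs whose genes lie inside the mammalian Hox clusters. The species prefix is left out below where it is not needed. They were selected by name, as 4 of the 1247 mouse miRNAs on the array; the selection rule uses no measured value, but it was made with earlier results of these data known. The cells were mProx24, a mouse proximal tubular cell line labelled C57B6, and total RNA of each condition was read on 1 Agilent miRNA array in 1 colour (Cy3). All 6 cultures grew in Dulbecco's modified Eagle's medium with fetal calf serum. The control was kept at 20% oxygen under the codes NG and PBS. High glucose (code HG) and palmitate, which the title calls high FFAs, were each applied alone at 20% oxygen. Hypoxia was 1% oxygen for 12 h with NG and PBS. Triple stimuli joined 1% oxygen, HG and palmitate, and the last condition added rapamycin to these. Palmitate was given at 150 µM for 9 h on 0.15% bovine serum albumin, so the fatty acid and its carrier cannot be told apart against the PBS samples. Rapamycin, an inhibitor of the kinase complex mTORC1, was given at 0.4 µg/ml for 12 h before palmitate. The glucose concentrations are not given in the sources used here.

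Hox genes encode homeodomain transcription factors that give cells their position along the body axis, and their order on the chromosome follows the order in which they are used along that axis. The miR-10 genes sit near the Hox4 genes and the miR-196 genes next to the Hox9 genes, and the miRNAs are transcribed from the same clusters. Hox genes of the Hox11 group are needed for the kidney to form, and cultured cells often keep the Hox pattern of their origin. miR-196 is known for directing cleavage of Hoxb8 mRNA, to which it pairs almost fully, and miR-10 for targeting Hox mRNAs among others.

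The 4 miRNAs form pairs that differ by a single base outside the seed, so their sequences decide how well an array can separate them. The mature sequences are from RefSeq (GRCm38.p6), 5′ to 3′, with the seed, bases 2 to 8, in capitals, and all 4 had an entry.
miR-10a-5p: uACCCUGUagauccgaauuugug
miR-10b-5p: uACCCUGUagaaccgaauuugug
miR-196a-5p: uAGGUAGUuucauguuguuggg
miR-196b-5p: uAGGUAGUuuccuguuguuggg
Counting from 1 at the 5′ end, miR-10a-5p and miR-10b-5p differ by U12A and miR-196a-5p and miR-196b-5p by A12C. Each seed was shared by the 2 members of its pair and by no other of the 1679 mature miRNA names in the RefSeq table. A relative of each pair is shown for contrast (miR-99a-5p for miR-10, let-7a-5p for miR-196).
miR-99a-5p: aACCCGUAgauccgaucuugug
let-7a-5p: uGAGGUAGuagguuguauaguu
Set side by side from base 1 without gaps, the seed of miR-99a-5p differs from that of miR-10a-5p by U6G, G7U and U8A. Much of the 3′ part is alike only when shifted by a base. The miR-196 seed occurs in 8 of the 9 let-7 family miRNAs as bases 3 to 9, shifted by a base from the seed position, and let-7e-5p lacks it.

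The members come from 5 hairpins in 4 clusters. Mir10a lies at chr11:96317165-96317274 on the plus strand, inside the annotated span of Hoxb3 and 0.993 kb from Hoxb4. Mir10b lies at chr2:74726070-74726137 on the plus strand, inside the spans of Hoxd3 and Hoxd4. Mir196a-1 lies at chr11:96265164-96265265 on the plus strand, 6.07 kb from Hoxb9, and Mir196a-2 at chr15:102973350-102973434 on the plus strand, 1.45 kb from Hoxc10 and 3.60 kb from Hoxc9. Mir196b lies at chr6:52230081-52230165 on the minus strand, 1.03 kb from Hoxa10 and 2.71 kb from Hoxa9. Positions are those of GRCm38.p6. Both Mir196a genes give the same mature miR-196a-5p, so a signal for it has no single gene of origin.

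**Figure D1:**
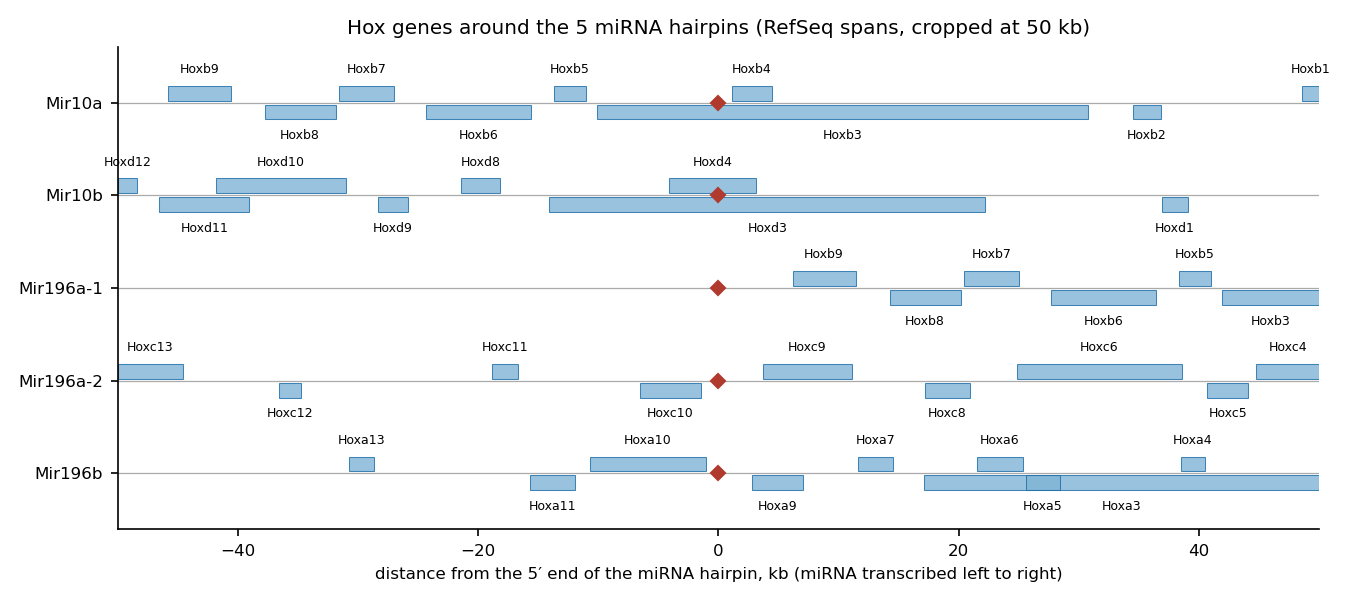
Hox genes (bars, RefSeq spans, shown within 50 kb) around each of the 5 miRNA hairpins (diamonds), as distance in kb from the hairpin's 5′ end with the miRNA transcribed left to right. Hoxb4 starts 1.10 kb from the 5′ end of Mir10a and 0.993 kb from its 3′ end. Mir10b lies inside Hoxd4, and Mir196a-2 and Mir196b each between a Hox10 and a Hox9 gene.

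The array carried 10 probes for the members, 4 for miR-196a-5p and 2 for each of the other members. Every probe is the exact complement of its miRNA from base 1, 2, 3 or 4 through to the 3′ end. Each covers the base at position 12 and so has 1 mismatch to the other miRNA of the pair. The brightest probe of each miRNA is given here as DNA, 5′ to 3′, with the base opposite position 12 in capitals.
miR-10a-5p probe: cacaaattcggAtctacaggg
miR-10b-5p probe: cacaaattcggTtctacaggg
miR-196a-5p probe: cccaacaacaTgaaactaccta
miR-196b-5p probe: cccaacaacaGgaaactacc
How much of a probe's signal comes from the other miRNA of the pair was not tested, and values of each pair may share signal. Between the pairs the fewest mismatches of any probe were 10.

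All 4 members were detected on all 6 arrays. Detection of a probe required that 0.5 or more of its spots stood well above background, and the scanner software's own call gave the same result for the members. In all, 154 miRNAs were detected on all 6 arrays and 198 on at least 1, and 11.4% to 13.3% of miRNA spots were well above background. The other arms of the same hairpins gave a different picture. Of 7 further miRNAs made from the Hox clusters, only miR-615-3p, from the Hoxc cluster, met the detection rule, on all 6 arrays. miR-10b-3p, miR-196a-1-3p, miR-196a-2-3p, miR-196b-3p and miR-615-5p were not detected on any array by either rule. miR-10a-3p was called by the software on 3 arrays, at summed signals of 3.67 to 5.67 over the 6 arrays, and by the spot rule on 0. The arms that could tell Mir196a-1 from Mir196a-2 were thus both below detection.

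The cell type on the labels was set against marker miRNAs. Of 9 kidney tubule markers 5 were detected, the miR-30 family from miR-30a-5p to miR-30e-5p, while miR-204-5p, miR-192-5p, miR-215-5p and miR-194-5p were not. None of the 5 miR-200 family epithelial markers was detected, nor any of 2 endothelial, 6 blood, 5 fibroblast and smooth muscle, 2 neuronal and 1 hepatocyte markers. Of 3 muscle markers miR-206-3p was detected, on all 6 arrays. The tubule markers apart from miR-30 were therefore below detection while both miR-10 and both miR-196 miRNAs were present.

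Signals are processed intensities of the brightest probe, on a linear scale that orders arrays for 1 miRNA but not 1 miRNA against another. Before scaling, mmu-miR-10a-5p read 463 in the control, 520 with high glucose and 540 with palmitate, and at 1% oxygen 579 in hypoxia alone, 560 under triple stimuli and 583 once rapamycin was added. Its partner mmu-miR-10b-5p read 195 in the control, 215 with high glucose and 230 with palmitate, and at 1% oxygen 226 in hypoxia alone, 221 under triple stimuli and 232 once rapamycin was added. Both were dimmest in the control and brightest with rapamycin. mmu-miR-196a-5p read 386 in the control, 406 with high glucose and 395 with palmitate, and at 1% oxygen 419 in hypoxia alone, 411 under triple stimuli and 447 once rapamycin was added. mmu-miR-196b-5p read 124 in the control, 128 with high glucose and 131 with palmitate, and at 1% oxygen 145 in hypoxia alone, 124 under triple stimuli and 129 once rapamycin was added. Over the 281 probes detected everywhere, the control array also had the lowest 75th percentile, 295, and the rapamycin array the highest, 382; over all probes the order of the arrays was different.

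**Figure D2:**
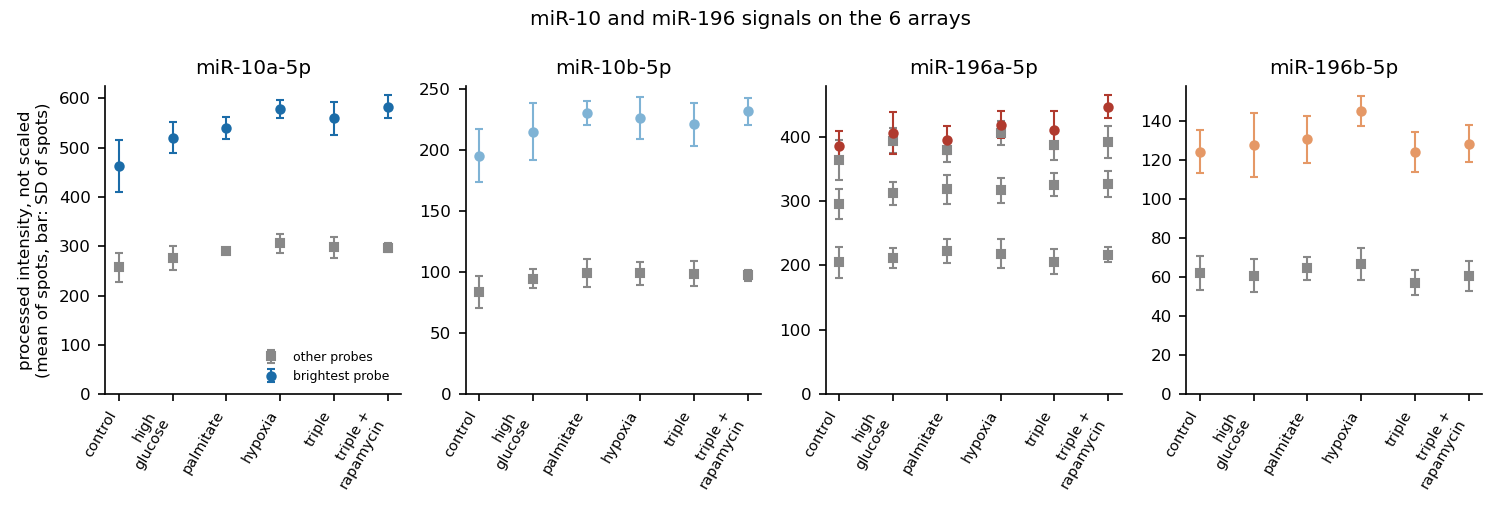
Unscaled processed intensity (vertical axis, linear from 0) of every probe of the 4 members on the 6 arrays. Coloured circles are the brightest probe, grey squares the other probes, and bars the SD of the spots of a probe on 1 array; the brightest miR-10a-5p probe runs from 463 in the control to 583 with rapamycin.

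Each array was therefore divided by its own 75th percentile. The arrays hold RNA of whole cultures, so fewer cells with a miRNA and less of it in each cell cannot be told apart. Scaled, miR-10a-5p read 531 ± 13.7 (SE over spots) in the control, 490 ± 6.64 with high glucose and 574 ± 5.17 with palmitate, and 584 ± 4.53 in hypoxia alone, 547 ± 7.53 under triple stimuli and 517 ± 4.74 once rapamycin was added. In that order of levels, hypoxia and palmitate did not differ by more than 2 SE, nor did triple stimuli and the control, or the control and the rapamycin array. The steps from palmitate down to triple stimuli and from the rapamycin array down to high glucose were larger than 2 SE. miR-10b-5p read 224 ± 5.60 in the control, 202 ± 4.90 with high glucose and 245 ± 2.54 with palmitate, and 228 ± 3.89 in hypoxia alone, 216 ± 3.79 under triple stimuli and 205 ± 2.20 once rapamycin was added. Palmitate stood above its neighbour hypoxia, and triple stimuli above the rapamycin array, by more than 2 SE. The other neighbours, hypoxia and control, control and triple stimuli, rapamycin and high glucose, did not differ by that much. After scaling, the brightest probes of both miR-10 miRNAs read highest in palmitate and hypoxia and lowest in high glucose. For miR-10b-5p, hypoxia was within 2 SE of the control and high glucose within 2 SE of the rapamycin array. Its other probe read 89.0 in high glucose and 86.3 on the rapamycin array.

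After scaling, the miR-196 pair had a narrower and a wider member. miR-196a-5p read 442 ± 8.43 in the control, 382 ± 9.88 with high glucose and 420 ± 7.21 with palmitate, and 423 ± 6.80 in hypoxia alone, 401 ± 9.29 under triple stimuli and 396 ± 5.30 once rapamycin was added. No 2 neighbours in its order of levels differed by more than 2 SE. miR-196b-5p read 143 ± 2.90 in the control, 120 ± 3.44 with high glucose and 139 ± 2.98 with palmitate, and 147 ± 1.83 in hypoxia alone, 122 ± 2.28 under triple stimuli and 114 ± 1.94 once rapamycin was added. Its arrays fell into an upper set of hypoxia, control and palmitate and a lower set of triple stimuli, high glucose and rapamycin. The gap between the sets was the only step between neighbours past 2 SE. These sets were not present before scaling. There the control and triple stimuli both read 124, below high glucose at 128 and the rapamycin array at 129. These errors cover spots of 1 array only. The scaling itself touched the members, since the probe at the 75th percentile was a miR-196a-5p probe in the control and in palmitate. With the percentile taken without the members' probes, 0 of the 28 differences below moved by more than 2 SE. Of these 28, 2 turned sign, those of the miR-196 pair in palmitate minus control. With no scaling 25 of the 28 moved by more than 2 SE, and with spike-in scaling 24.

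From the highest to the lowest array, miR-10a-5p ranged over 0.25 on the log2 scale, miR-10b-5p over 0.28, miR-196a-5p over 0.21 and miR-196b-5p over 0.36. The median range of the 154 miRNAs detected everywhere was 0.32. Of these, 34 had a smaller range than miR-196a-5p and 90 a smaller one than miR-196b-5p. The order depended on the scaling. Without scaling the members ranged from 0.21 (miR-196a-5p) to 0.33 (miR-10a-5p), with miR-196b-5p at 0.22, and the median of all miRNAs was 0.41. After quantile normalisation, in contrast, miR-10a-5p had a range of 0.56 against a median of 0.36.

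**Figure D3:**
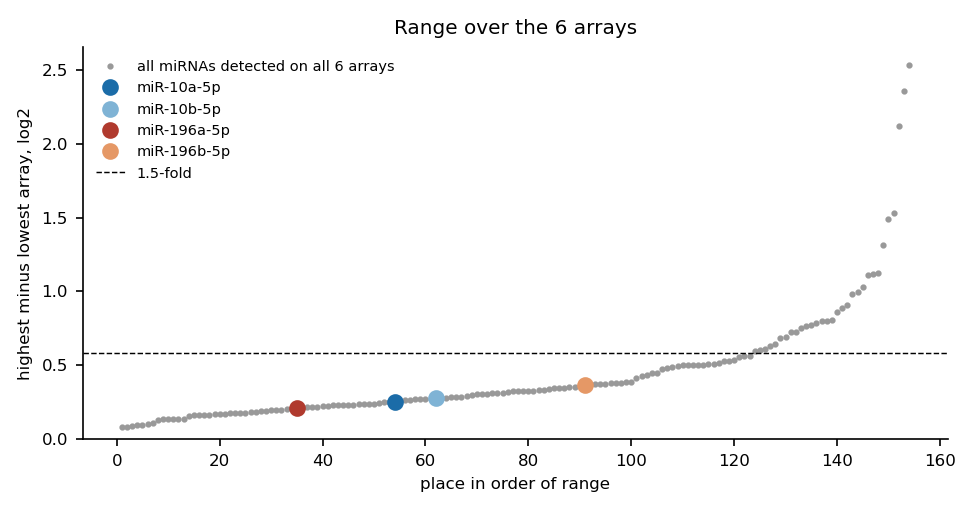
Range over the 6 arrays (highest minus lowest scaled log2 signal, vertical axis) of the 154 miRNAs detected everywhere, sorted by range (horizontal axis). The members, coloured, lie between 0.21 and 0.36, under the dashed line of 1.5-fold, while the widest miRNA reached 2.53.

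Each stimulus was compared with the control, triple stimuli with hypoxia, and rapamycin with triple stimuli. With 1 array a condition, these 7 comparisons carry neither replicates nor a p-value. The rule for a call was detection on both arrays, a difference of 1.5-fold or more, and one larger than 2 SE over spots. None of the 28 member differences was called. The largest was that of miR-196b-5p in triple stimuli plus rapamycin minus control, at -0.32 on the log2 scale (spot SE 0.04), a size of 1.25-fold. Past 2 SE but under 1.5-fold lay 18 of the 28, 3 of them positive and 15 negative, and without scaling 17 of the 28 had the opposite sign. The comparisons with the control share that array, so their values are not independent.

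In high glucose, all 4 members lay below the control after scaling: miR-10a-5p by a log2 difference of -0.12 (spot SE 0.04), miR-10b-5p -0.15, miR-196a-5p -0.21 and miR-196b-5p -0.25 (spot SE 0.05). Of 162 miRNAs detected on both arrays 6.79% were called, all higher, against 0 of 4 members. The median of the members was -0.18 and that of all miRNAs -0.05. The sign depended on the scaling. Without it the 4 differences were all positive, and the median of all miRNAs turned positive as well. Set against that median after scaling, miR-196a-5p stood at -0.16 and miR-196b-5p at -0.19. Over 12 alternatives in the processing of the scanner files these ran from -0.16 to -0.02 and from -0.23 to -0.12. miR-10a-5p at -0.06 and miR-10b-5p at -0.09 each turned sign in 1 of the 12. Those that only change an array's divisor could not move such a distance. The authors' deposited table of processed values has the high glucose and palmitate columns exchanged relative to the scanner files, so by its labels these values belong to palmitate. Which labels are right cannot be told from the files, and the names high glucose and palmitate here are those of the scanner files.

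In palmitate, the miR-10 pair lay above the control, miR-10a-5p by 0.11 (spot SE 0.04) and miR-10b-5p by 0.13 (spot SE 0.04), both under 1.5-fold. miR-196a-5p differed by -0.07 (spot SE 0.04) and miR-196b-5p by -0.04 (spot SE 0.04), within 2 SE. With the percentile taken without the members' probes, miR-10a-5p lay at 0.19 and miR-10b-5p at 0.21. Under that scaling miR-196a-5p lay at 0.0001 and miR-196b-5p at 0.04. Of 155 miRNAs 2.58% were called, all lower, against 0 members. Set against the median of all miRNAs (-0.03), miR-10a-5p stood 0.15 higher and miR-10b-5p 0.17 higher. Over 12 alternatives in the processing of the scanner files those 2 values ran from 0.12 to 0.19 and from 0.12 to 0.25. Alternatives that only change an array's divisor are among the 12 and leave such a distance as it was. In the authors' deposited table, where the column named palmitate matches the scanner file of high glucose, palmitate minus control was -0.33 for miR-10a-5p and -0.46 for miR-196b-5p.

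In hypoxia, miR-10a-5p lay 0.14 above the control on the log2 scale (spot SE 0.04, 1.10-fold). The order of all 162 miRNAs had 146 below it. miR-10b-5p differed by 0.03, miR-196a-5p by -0.06 and miR-196b-5p by 0.04, each within 2 SE. Called miRNAs made up 1.85%, all lower, and no member was among them. All 4 members lay above the median of all miRNAs, which was -0.11. The distance of miR-10a-5p from that median was 0.25 and lay between 0.19 and 0.29 over the 12 alternatives. Those that only change an array's divisor could not move it.

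In triple stimuli, miR-10a-5p differed from the control by 0.04 and miR-10b-5p by -0.05, both within 2 SE, while miR-196a-5p differed by -0.14 (spot SE 0.04; 0.09 without scaling) and miR-196b-5p by -0.23 (spot SE 0.04). Called miRNAs made up 5.59% of 161, all higher, and included no member. The unscaled summed signals of miR-196b-5p were 52.8 ± 4.35 (software error) in the control and 51.3 ± 4.30 in triple stimuli, closer together than the error. With rapamycin added, the differences from the control were -0.04 for miR-10a-5p, -0.12 for miR-10b-5p, -0.16 for miR-196a-5p and -0.32 for miR-196b-5p. There 9.15% of 164 miRNAs were called, again without a member. Without scaling these 4 differences were all positive, and that of miR-196b-5p was 0.05 where the median of all miRNAs was 0.26. Relative to the scaled median of -0.11, miR-196b-5p lay at -0.22, and at -0.32 to -0.15 over the 12 alternatives. The other members lay between -0.05 (miR-196a-5p) and 0.07 (miR-10a-5p). In triple stimuli minus control, miR-196b-5p lay -0.24 from the median, and -0.36 to -0.16 over those alternatives. The others lay between -0.15 (miR-196a-5p) and 0.03 (miR-10a-5p). A change of divisor alone could not move these distances.

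**Figure D4:**
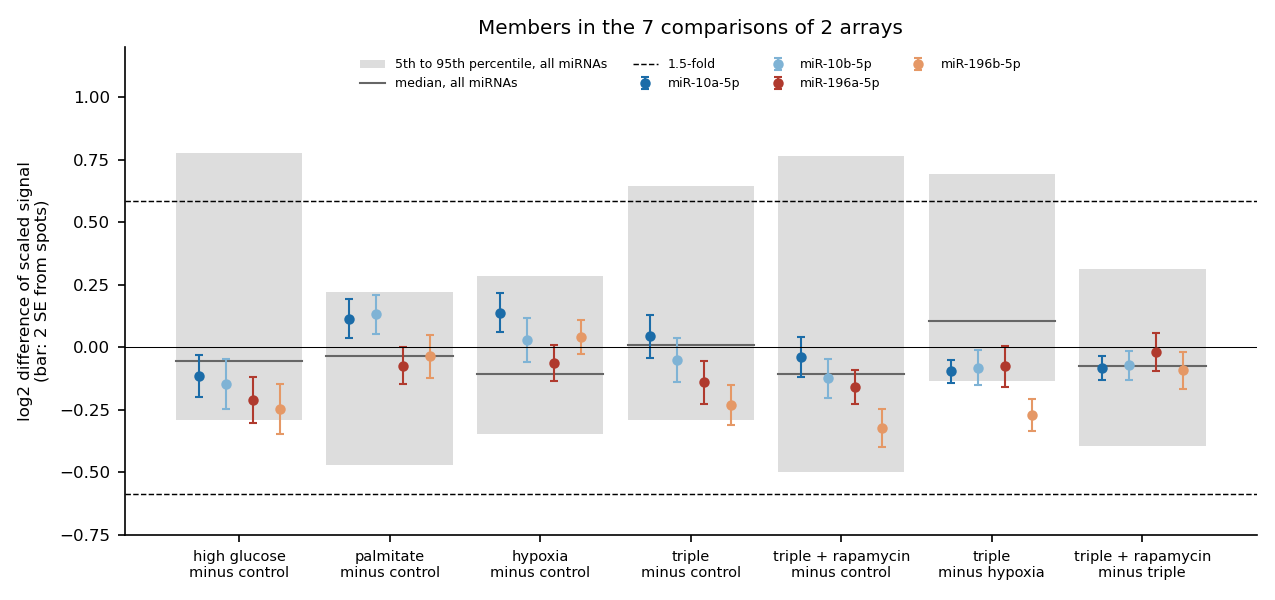
Log2 difference of scaled signal (vertical axis, bars 2 SE over spots) of each member in the 7 comparisons of 2 arrays, with the 5th to 95th percentile (grey) and the median (line) of all miRNAs detected on both arrays. No member crosses the dashed 1.5-fold lines; miR-196b-5p lies below the grey range in triple stimuli minus hypoxia, at -0.27.

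Triple stimuli against hypoxia, which share 1% oxygen, gave negative values for all 4 members and under every alternative tried. The differences were -0.10 for miR-10a-5p (spot SE 0.02), -0.08 for miR-10b-5p (spot SE 0.03), -0.08 for miR-196a-5p (spot SE 0.04) and -0.27 for miR-196b-5p (spot SE 0.03). That of miR-196a-5p was within 2 SE, and its 4 probes ran from -0.13 to -0.006. miR-196b-5p, at scaled signals of 147 in hypoxia and 122 in triple stimuli, had 1 miRNA of 171 below it. Its other probe also gave -0.27, and the alternatives on the scanner files ran from -0.47 to -0.19. In the software's summed signal, scaled, it was -0.43 with a software error of 0.17, and that of miR-196a-5p was -0.23 with 0.11, the only 2 of the 28 member differences past 2 software errors. Without scaling the summed signal gave -0.22 and -0.03, both within 2 errors. Called miRNAs made up 8.77%, all higher, with a median of all miRNAs of 0.10, and no member was called.

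Rapamycin against triple stimuli alone gave differences of -0.08 for miR-10a-5p, -0.07 for miR-10b-5p, -0.02 for miR-196a-5p and -0.09 for miR-196b-5p. The median of all 184 miRNAs was -0.07, so the members lay between -0.02 and 0.05 from that median. Called miRNAs made up 3.80% and included no member. Without scaling all 4 values were positive, as they were in the software's summed signal, so their direction is not settled.

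**Figure D5:**
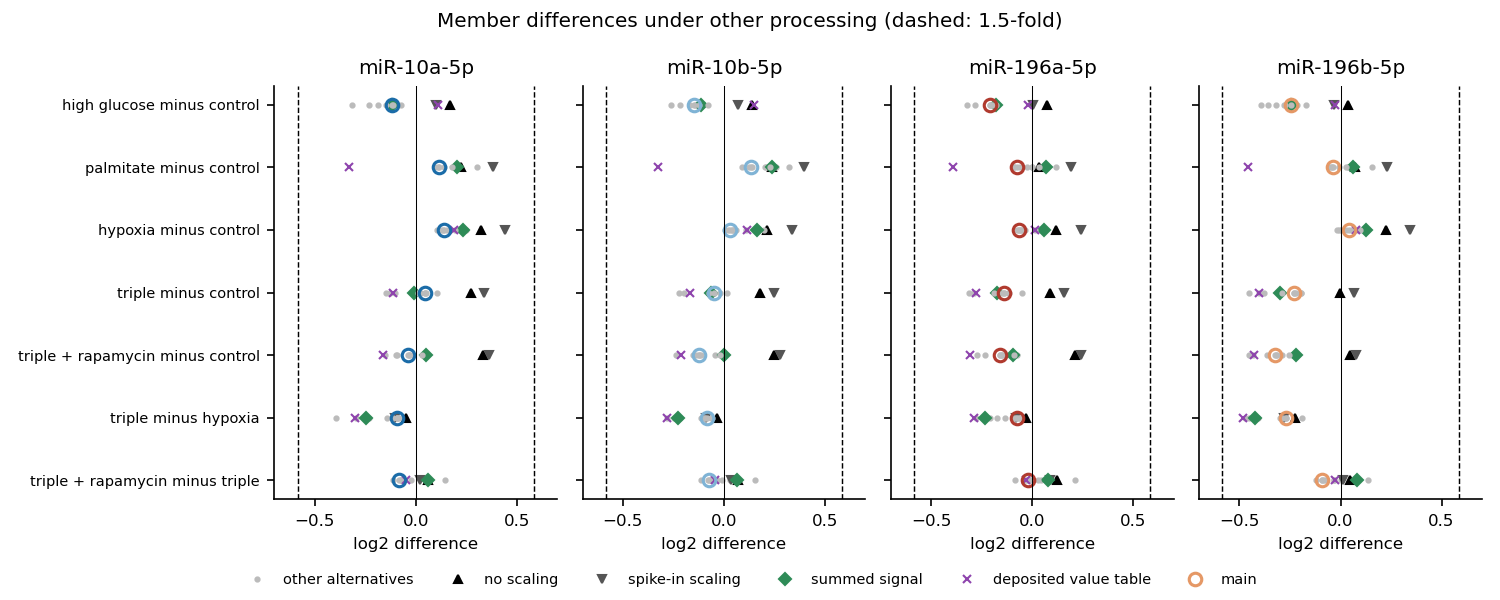
Log2 difference (horizontal axis) of each member in each of the 7 comparisons under the main processing (open circles) and the alternatives (other marks), with 1.5-fold as dashed lines. No value reaches 1.5-fold; no scaling and spike-in scaling shift most comparisons with the control to the right, and triple stimuli minus hypoxia stays left of 0.

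The ratio within a pair is free of the array's scaling. The log2 ratio of miR-10b-5p over miR-10a-5p, centred on its mean over the 6 arrays, was 0.05 in the control, 0.02 with high glucose and 0.07 with palmitate. On the arrays at 1% oxygen it was -0.06 in hypoxia alone, -0.04 under triple stimuli and -0.04 once rapamycin was added. The 3 arrays at 20% oxygen thus lay above the 3 at 1%, a split that is also the split between the rows of the slide. The nearest arrays across this split, high glucose (spot SE 0.04) and rapamycin (spot SE 0.02), did not differ by more than 2 SE. The summed signals gave the same split and the dimmer probes did not. The ratio of the miR-196 pair showed it in none of these signals. Of the 154 single miRNAs, after scaling, 11.0% had oxygen groups that did not overlap, and the share over ratios of other pairs was not taken. The whole span of the ratio was 0.13 (spot SE 0.03). The ratio of miR-196b-5p over miR-196a-5p spanned 0.27 (spot SE 0.04), from 0.13 in hypoxia to -0.14 with rapamycin. The dimmer probes of this pair gave a span of 0.14 and the summed signals 0.19. In both, hypoxia was again highest, but triple stimuli was lowest instead of rapamycin.

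Grouped by oxygen, 3 arrays at 1% were compared with 3 at 20% with limma over the 154 miRNAs detected everywhere. The other stimuli are unevenly spread over the groups, and the oxygen split is also the split between the rows of the slide, so oxygen and slide row cannot be told apart. miR-10a-5p averaged 9.10 ± 0.09 (SD, n = 3) at 1% and 9.05 ± 0.12 at 20% on the log2 scale, a difference of 0.05 (SE 0.09, limma adjusted p = 0.930). miR-10b-5p differed by -0.04 (SE 0.09, limma adjusted p = 0.940) and miR-196a-5p by -0.03 (SE 0.08, limma adjusted p = 0.963). miR-196b-5p averaged 6.98 ± 0.19 at 1% and 7.06 ± 0.13 at 20%, a difference of -0.08 (SE 0.12, limma adjusted p = 0.930). The values of the groups overlapped for all 4 members. No miRNA passed an adjusted p of 0.05 in limma (0% called), and 7 had an unadjusted p under 0.05, none of them a member. An exact permutation test over the arrays, two-sided, gave p of 0.6 to 0.8 for the members and cannot go below 0.10 with 3 against 3. The differences lay within their spread, which does not show that oxygen leaves these miRNAs unchanged.

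The relatives by sequence gave no call either. miR-99a-5p and miR-99b-5p, which share much of the miR-10 sequence and lie outside the Hox clusters, were detected on all 6 arrays and miR-100-5p on 4. In none of the 7 comparisons was any of these 3, of the 9 let-7 family miRNAs or of the other Hox-cluster miRNAs called. A call needs detection on both arrays, which among the other Hox-cluster miRNAs only miR-615-3p met. miR-100-5p did not meet it in the comparisons with the control, so it could not be called there. In triple stimuli minus hypoxia let-7 miRNAs lay between -0.02 (let-7c-5p) and 0.14 (let-7e-5p), with a median of 0.04, where the members had a median of -0.09. In the same comparison miR-99a-5p differed by -0.09 and miR-100-5p by 0.10. miR-615-3p, close to background at summed signals of 6.20 to 7.77, differed by -0.19 there and by -0.49 in high glucose minus control.

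Profiles over the 6 arrays were set side by side by the root mean square of the log2 difference after centring each miRNA on its own mean, as a description over 6 arrays that share their scaling. Among 153 other miRNAs the nearest to miR-10a-5p was miR-10b-5p (0.05), followed by miR-23a-3p (0.06) and miR-30a-3p (0.06). The nearest to miR-10b-5p were miR-23b-3p, miR-10a-5p and miR-125a-5p, at 0.05 to 0.06. miR-196a-5p was nearest to miR-423-5p, miR-652-3p and miR-23a-3p, all at 0.03, and miR-196b-5p to miR-149-5p (0.06), miR-23b-3p (0.06) and miR-182-5p (0.08). The miR-10 miRNAs were thus each among the other's 3 nearest. Of the miR-196 pair, miR-196a-5p was in place 7 for miR-196b-5p and miR-196b-5p in place 43 for miR-196a-5p.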

How the data were processed

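Agilent mouse miRNA arrays were deposited for 6 samples, 1 per condition. The authors read them with Agilent Feature Extraction 10.7.3.1, per the submitters' processing notes; the scanner files hold deposited intensity values per spot, linear and without normalisation between arrays. The deposited value table holds a linear signal per miRNA, which for 68.7% to 73.5% of the miRNAs compared on each array equals the software's summed signal divided by 1 factor, within 0.1%; the sources used here do not give how it was chosen. Its palmitate column matched the scanner file of high glucose for 70.6% of miRNAs and its own for 0%, within 0.1%, and the reverse pair matched for 70.9%. Which labels are right cannot be told from the files; comparisons use those of the scanner files.

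Spots not flagged as outliers were averaged per probe, divided by the array's 75th percentile of the 281 probes detected everywhere, and moved to log2; the brightest probe stood for a miRNA. The oxygen test used limma 3.58.1 in R 4.3.3 (lmFit, eBayes, two-sided, Benjamini-Hochberg). Both call rules were tested on simulated data. Members are always named, with the fixed lists and the 3 nearest profiles of each. The members and lists were chosen with earlier results of these data known. Alternatives covered scaling, background, probe summary, spots, detection, fold limit, labels and left-out arrays; the scaling without members' probes was added after seeing the data. Array number limits the precision, and p-values measure the spread between arrays that carry different treatments.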

Additional observations from a re-analysis of the deposited data

How the results depend on the processing

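The count of called members was 0 in the 7 comparisons and in the oxygen test. It stayed 0 in 129 of 129 alternative counts, fold limits of 1.3 and 2 included. Some of these counts could not differ: those at a fold limit of 2 and that of the exact permutation test. Nor could those of 2 arrays under the software's detection call or with exchanged labels. Leaving out each array in turn gave 0 each time in the oxygen test. Of 372 alternative values of single differences 0 reached 1.5-fold, 162 moved by more than 2 spot SE and 80 turned sign, 17 of 28 with no scaling and 17 of 28 with spike-in scaling. These scalings shifted the median over all miRNAs by up to 0.37 and 0.40 on the log2 scale. Relative to that median 28 of 336 values turned sign. Among the 336 are alternatives that only change an array's divisor, which leave this distance as it was and could not turn its sign. The largest values were -0.48 for miR-196b-5p in triple stimuli minus hypoxia, in the authors' deposited table, and 0.44 for miR-10a-5p in hypoxia minus control with spike-in scaling. Limma differences by oxygen turned sign in 2 to 5 of 21 alternatives for each member, with adjusted p from 0.471 to 1.000. No paired analysis by replicate number was possible because each condition has 1 array. Each slide column holds an array at 20% and an array at 1% oxygen, and the limma fit with slide column as a block called 0 members, with adjusted p from 0.880 to 0.936. Signal over background limits the hairpins' other arms, most of which were not detected.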

Other observations

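The array files place each probe on the genome. For the probes of both miR-10 miRNAs and of miR-196a-5p, GRCm38 positions given there lay inside the mature miRNA of RefSeq GRCm38.p6. Both probes of miR-196b-5p were placed inside the Mir196b hairpin, on the minus strand, but outside its mature 5p arm; counted from the hairpin's other end the same positions fall inside that arm. Their sequences are exact complements of miR-196b-5p, so their signals were taken as such.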
